A study of Mus musculus with 4 samples.

Results

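Peaks of the forkhead transcription factor Foxo1 were examined around 9 genes linked with regulatory T (Treg) cells. The genes were Cd28, Ctla4, Icos, Ikzf2, Il2ra, Tnfrsf18, Tnfrsf4, Nrp1 and Foxp3. Members were the intervals of 3 deposited peak lists whose centre lay in 1 of 6 fixed windows of the mouse build mm9. These windows were 60.75 to 61.15 Mb of chromosome 1 for Cd28, Ctla4 and Icos, 69.50 to 69.80 Mb of chromosome 1 for Ikzf2, and 11.50 to 11.68 Mb of chromosome 2 for Il2ra. Tnfrsf18 and Tnfrsf4 shared 155.34 to 155.46 Mb of chromosome 4, Nrp1 had 130.83 to 131.10 Mb of chromosome 8, and Foxp3 had 7.10 to 7.23 Mb of chromosome X. The windows covered 1400 kb and held 76 of the 77652 intervals: 30 of 16473 antibody peaks, 41 of 57748 streptavidin peaks and 5 of 3431 intervals of a list named for both methods.

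The peaks came from chromatin immunoprecipitation followed by sequencing of mouse Treg cells, called nTreg in the labels. One library was made from cells of wild-type B6 mice with an antibody to Foxo1, and 1 with streptavidin from cells of Foxo1tagBirA mice, whose own Foxo1 protein carries biotin. The series also has 1 input library for each, whose own values were not analysed here, and the list of both methods is attached to the antibody input. Each group thus had 1 library, the age and number of the mice are not given in the sources used here, and antibody against streptavidin capture cannot be told apart from wild-type against Foxo1tagBirA cells. With 1 library per group no value below has a replicate error and no difference was tested, and the depth of the libraries is unknown. Exact 95% binomial intervals (Clopper-Pearson) are given for shares and density ratios, and they cover counting error over peaks alone.

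Foxo1 is a transcription factor that leaves the nucleus when Akt phosphorylates it downstream of PI3K, and in T cells it is known for maintaining quiescence, homing and Treg function. Treg cells depend on Foxp3, the forkhead factor that defines the lineage, and many carry Helios, the zinc-finger factor encoded by Ikzf2. Their surface carries the interleukin-2 receptor alpha chain (Il2ra, or CD25), the costimulatory receptors Cd28 and Icos and the inhibitory receptor Ctla4. It also carries the tumour necrosis factor receptors GITR (Tnfrsf18) and OX40 (Tnfrsf4), and neuropilin-1 (Nrp1). In the RefSeq gene order of GRCm38, Cd28, Ctla4 and Icos are successive protein-coding genes, as are Tnfrsf4 and Tnfrsf18. Il2ra lies between Rbm17 and Il15ra, Ikzf2 between Erbb4 and Spag16, Nrp1 between Pard3 and Itgb1, and Foxp3 between Ppp1r3f and Ccdc22. Gene positions in mm9 were not used here, so a peak is assigned to a window and not to a gene, a promoter or an intron.

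The sequences of the peaks were not analysed here, since no mm9 genome was used. Promoter sequences from RefSeq (GRCm38.p6, a build other than that of the peaks) were found for 6 of the 9 genes, with 7 start sites. Each was searched on both strands for the forkhead letters GTAAACA and GTAAATA, in the 300 bases from 250 before to 50 after the start. Neither was present in any of the 7, against 3.65% of all 32851 RefSeq promoters for GTAAACA, 3.04% for GTAAATA and 6.54% for either. The 5 letters GTAAA, which begin both motifs and were added after that result, were present in the 250 bases before 3 of the 7 starts, against 28.3% of all starts. Those 3 promoters are shown because they hold the letters, with GTAAA, or TTTAC for the opposite strand, in capitals and all else in lower case. They lie at chr1:60908775-60909024 (Ctla4), chr4:156026072-156026321 (Tnfrsf18) and chrX:7579426-7579675 (Foxp3) of GRCm38.p6, all on the plus strand.
Ctla4: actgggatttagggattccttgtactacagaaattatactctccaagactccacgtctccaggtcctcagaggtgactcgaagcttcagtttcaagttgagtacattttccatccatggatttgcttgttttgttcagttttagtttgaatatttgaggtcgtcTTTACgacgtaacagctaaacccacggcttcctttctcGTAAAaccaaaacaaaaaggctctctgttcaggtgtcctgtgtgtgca
Tnfrsf18: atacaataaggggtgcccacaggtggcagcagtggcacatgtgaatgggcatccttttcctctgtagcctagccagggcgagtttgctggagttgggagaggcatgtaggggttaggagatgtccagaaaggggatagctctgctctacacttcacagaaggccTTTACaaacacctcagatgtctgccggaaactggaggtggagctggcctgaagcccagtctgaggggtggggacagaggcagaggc
Foxp3: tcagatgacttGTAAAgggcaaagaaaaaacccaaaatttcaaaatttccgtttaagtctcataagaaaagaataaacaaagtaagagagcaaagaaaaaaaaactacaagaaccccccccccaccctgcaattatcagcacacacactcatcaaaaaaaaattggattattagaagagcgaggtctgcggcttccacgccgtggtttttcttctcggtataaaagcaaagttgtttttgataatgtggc
In Ctla4 the letters begin 86 and 48 bases before the start, in Tnfrsf18 86 bases before it and in Foxp3 239 bases before it. The other Foxp3 start and those of Il2ra, Tnfrsf4 and Nrp1 had none in these bases. A match describes the letters of a window and does not show a bound site.

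Antibody peaks were dense around the Treg genes, and streptavidin peaks were not clearly so. The windows held 21.4 antibody peaks per Mb against 6.41 over all chromosomes, a ratio of 3.34 (2.26 to 4.77). For streptavidin the densities were 29.3 and 22.5 peaks per Mb, a ratio of 1.30 (0.935 to 1.77), whose interval includes equal density. These intervals treat peaks as independent, which neighbouring peaks are not, and the difference between both ratios was not tested. The genes and windows were chosen with earlier results of these data known, so the ratios describe chosen places and test nothing. Against its own chromosome, the antibody ratio of single windows ran from 1.07 at Nrp1 to 34.1 at Foxp3, on a chromosome X with few peaks. The list of both methods had 3.57 intervals per Mb in the windows and 1.34 over all chromosomes, a ratio of 2.67 with a wide interval (0.869 to 6.23), as it rests on 5 intervals. There were 0.732 antibody peaks for each streptavidin peak in the windows, against 0.285 in the whole lists. The windows were drawn around genes and the chromosomes include gene-poor stretches, and the part of gene density in these ratios was not tested.

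**Figure D1:**
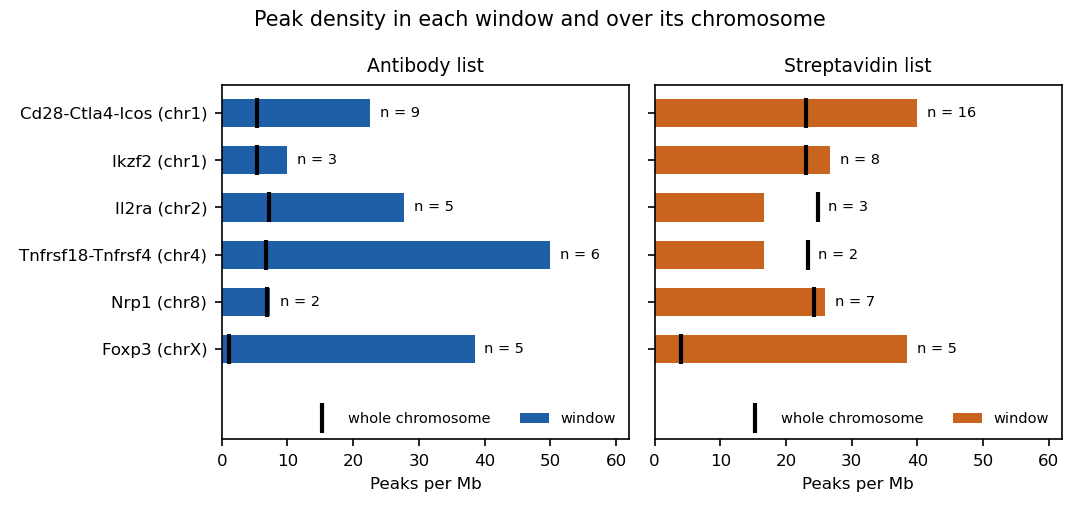
Peaks per Mb (x axis) in each window (bars, with the number of peaks) and over the whole chromosome that carries it (black marks), for the antibody list (left) and the streptavidin list (right). Antibody bars reach beyond their marks at every locus, by least at Nrp1, where 7.41 stands against 6.94, and the streptavidin bars of Il2ra and Tnfrsf18-Tnfrsf4 end short of theirs.

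The 6 loci differed among themselves. As a background, all chromosomes were divided into consecutive windows as long as that of each locus, with chromosome X kept apart from the autosomes. The 5 antibody peaks of the Foxp3 window equalled 38.5 per Mb, against 1.13 per Mb over chromosome X and 6.41 over all chromosomes. At least as many were held by 2 of the 1239 windows of X (0.161%). The 5 streptavidin peaks of the Foxp3 window also gave 38.5 per Mb, against 4.01 over X and 22.5 over all chromosomes. That count was reached by 5 of the 1239 windows of X (0.404%). The Foxp3 window was thus dense in both lists on a chromosome that is sparse in both.

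The window of Tnfrsf18 and Tnfrsf4 was dense in the antibody list alone. It held 6 antibody peaks, or 50 per Mb, against 6.76 over chromosome 4, and 1.4% of autosomal windows of its length had 6 or more. It held 2 streptavidin peaks, or 16.7 per Mb, below the 23.4 of chromosome 4, and 68.8% of the windows had at least 2. With 3 antibody peaks for each streptavidin peak, its mix of the lists was the most tilted to the antibody among the 6 loci.

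Within its fixed window, Il2ra resembled the Tnfrsf18-Tnfrsf4 window. Its 5 antibody peaks, 27.8 per Mb against 7.17 over chromosome 2, were matched or exceeded in 5.86% of autosomal windows. Its 3 streptavidin peaks, 16.7 per Mb against 24.9, were matched or exceeded in 69.2%. With 50 kb added on each side, the Il2ra window held 9 streptavidin peaks, a density no longer below that of chromosome 2. The low streptavidin density at Il2ra thus depends on where the window ends. At Cd28, Ctla4 and Icos both lists were above their chromosome, with 9 antibody peaks (22.5 per Mb against 5.41) and 16 streptavidin peaks (40.0 against 23.0). Of the autosomal windows of that length, 6.26% held at least 9 antibody peaks and 13.7% at least 16 streptavidin peaks.

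Ikzf2 and Nrp1 had counts that many windows reach. Ikzf2 had 3 antibody peaks (10.0 per Mb), a count reached by 30.6% of windows, and 8 streptavidin peaks (26.7 per Mb), reached by 45%. Nrp1 had 2 antibody peaks, reached by 40.1% of windows, and 7 streptavidin peaks (25.9 per Mb against 24.2 over chromosome 8), reached by 46.5%.

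**Figure D2:**
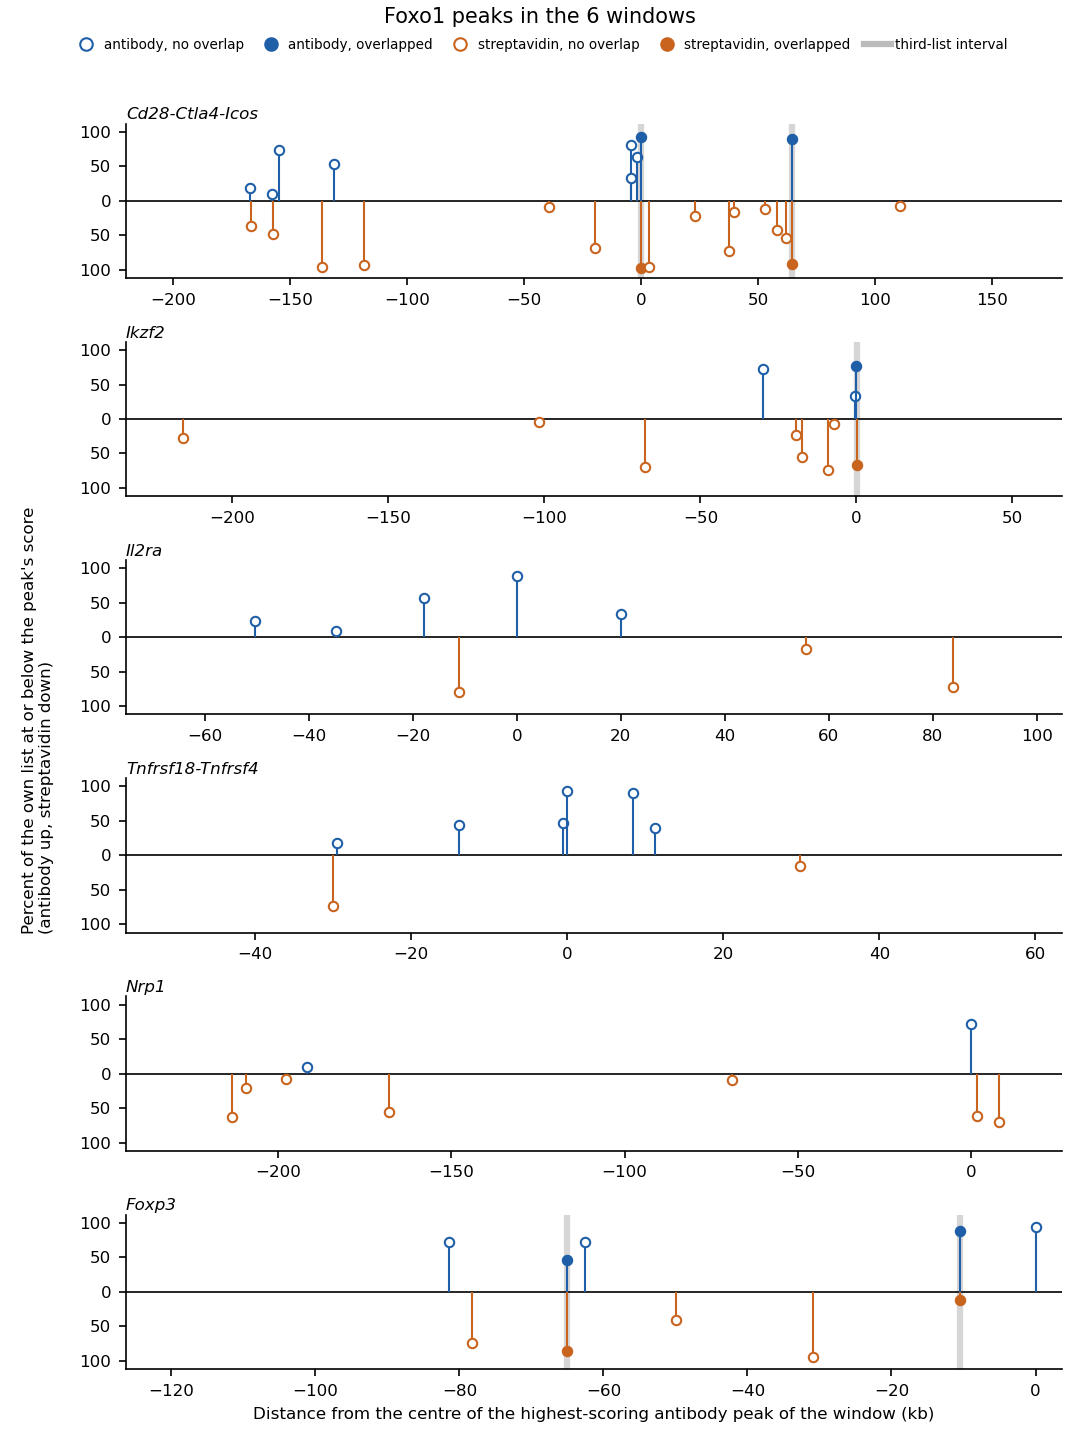
Each panel is 1 window, with the distance from its highest-scoring antibody peak in kb on the x axis and, on the y axis, the percent of the peak's own list at or below its score, upwards for antibody and downwards for streptavidin peaks. Filled points overlap a peak of the other list and grey bands mark the list of both methods: there are 5 such places, 2 at Cd28-Ctla4-Icos, 1 at Ikzf2 and 2 at Foxp3.

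The next comparison asked which of these peaks were found by both methods. In the windows 5 of the 30 antibody peaks, or 16.7% (5.64 to 34.7), had at least 1 base in common with a streptavidin peak, against 21.9% of the whole antibody list. Of the streptavidin members 5 of 41, or 12.2% (4.08 to 26.2), met an antibody peak, against 6.2% of the whole list. Both intervals include the share of the whole list, but they treat neighbouring peaks as independent. Both shares also count the same 5 places. With 30 and 41 peaks, no difference from the whole list was tested. The 5 shared places lay at 3 of the 6 loci. The windows of Il2ra, Tnfrsf18-Tnfrsf4 and Nrp1 held 13 antibody and 12 streptavidin peaks and no overlap.

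In the window of Foxp3, the gene of the lineage-defining factor, both methods met at 2 places, which were not assigned to a gene. The first was chromosome X, 7161147 to 7161407, where the antibody peak scored 159.5 and the streptavidin peak 106.85. The score is not defined in the files used here. It was taken to be the peak caller's value and read within its list: the first is at or above 45.8% of antibody scores and the second at or above 85.1% of streptavidin scores. The other place, 7215611 to 7215945, had the reverse order, with an antibody score of 383.03 (88.6% of the list at or below it) and a streptavidin score of 58.53 (12%). Its peak centres were 5.5 bases apart, the least of the 5 places, and the streptavidin peak lay wholly within the antibody peak.

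Of the remaining Foxp3 peaks, the highest-scoring antibody peak was at 7226214 to 7226430, with 542.62. It is the highest antibody score in any of the 6 windows, and its nearest streptavidin centre was 10538.5 bases away. The median of that distance was 10298 bases for all antibody peaks without an overlap. The peak of 542.62 was also the member nearest to a window edge, 3.68 kb inside. The antibody peaks at 7144751 to 7144922 and 7163666 to 7163868 scored 229.2 and 230.44. The highest-scoring streptavidin peak, at 7195265 to 7195522 with 132.56, had its nearest antibody centre 20384.5 bases away. The median for all streptavidin peaks without an overlap was 58910 bases. Both medians cover all chromosomes, whereas chromosome X is sparse in both lists, so they are not a matched background. The strongest peak of each list in the Foxp3 window was one that the other list did not have.

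In the window of Ikzf2, which encodes Helios, the shared place was chromosome 1, 69734017 to 69734309. The antibody peak there scored 256.6 (76.7% of the list at or below it) and was the strongest of the 3 in the window. The streptavidin peak scored 85.49 (67.1%), and its centre was 50.5 bases away. A second antibody peak, at 69733560 to 69733765 with a score of 137.89, was centred 456 bases from the first and overlapped no streptavidin peak. The third antibody peak, at 69704185 to 69704340, scored 232.49 and also had no overlap. The strongest streptavidin peak of the window, at 69724982 to 69725228, scored 90.93 and lay 8557.5 bases from the nearest antibody centre. The 8 streptavidin peaks spanned 216 kb of this window and the 3 antibody peaks 29.9 kb, but a span grows with the number of peaks. A further antibody peak, with a score of 296, was centred 6.29 kb outside the window. The antibody span thus also depends on where the window ends.

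In the window of Cd28, Ctla4 and Icos, the region 60970009 to 60970483 of chromosome 1 carried the highest-scoring peak of each list. The antibody peak scored 505.6 (92.6% of the list at or below it) and the streptavidin peak 161.19 (97.5%), the highest streptavidin score in any of the 6 windows. Their centres were 26.5 bases apart and they had 422 bases in common. This was the strongest place of the 6 windows by the streptavidin score, and the only one of the 5 shared places where both peaks were in the top decile of their list. It closed a run of 4 antibody peaks over 4866 bases, from 60965618 to 60970483, whose others scored 286.4, 136.19 and 197.7 and overlapped no streptavidin peak. In the whole antibody list 2.91% of peaks lay in runs of at least 4 with neighbouring centres within 5 kb.

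The other shared place of that window was 61034580 to 61034824. It had an antibody score of 400.03 (89.3% of the list at or below it) and a streptavidin score of 118.04 (90.9%), with centres 54 bases apart. In this case the interval of the list of both methods, 61034541 to 61034877, reached 39 bases further to the left and 53 to the right than both peaks together. At the other 4 shared places that interval equalled the union of the peaks exactly.

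**Figure D3:**
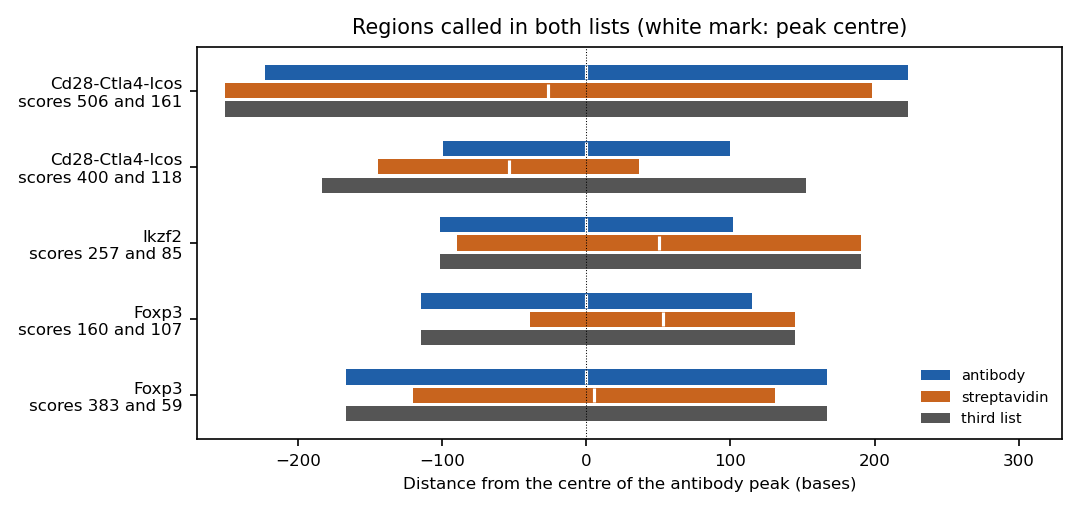
The 5 places called by both methods, each drawn as the extent of its antibody peak, streptavidin peak and interval of the list of both methods, in bases from the antibody centre (x axis), with the antibody and streptavidin scores at the left. Centres differ by 5.5 to 54 bases, and the third bar extends past the peaks in the second row alone.

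The streptavidin scores at Cd28, Ctla4 and Icos had a median of 75.1, against 74.7 for the whole list, and 8 of the 16 were in the list's higher-scoring 50%. Of the 6 member peaks in the top decile of the streptavidin list, whose lower bound is a score of 117, 5 were in this window, which held 16 of the 41 members, and 1 was at Foxp3. Those without an antibody overlap scored 146.74 at 60973309 to 60973619, 146 at 60833872 to 60834028 and 124.66 at 60851632 to 60851748. The remaining 11 streptavidin peaks of the window scored from 55.78 to 90.16. The highest-scoring antibody peak of the window with no overlap was the one of 286.4 in the run above.

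In the window of Tnfrsf18 and Tnfrsf4, the genes of GITR and OX40, 2 of the 6 antibody peaks were in their list's top decile. The other 4 scored below the list's median of 167, and none of the 6 overlapped a streptavidin peak. The peak at chromosome 4, 155396373 to 155396810, scored 530.87 (93.0% of the list at or below it), and the nearest streptavidin centre was 29879.5 bases away. The peak at 155404769 to 155405200 scored 451.66 (91.2%) at a distance of 21486.5 bases. Each had a weaker antibody neighbour, with 160.71 centred 571 bases away and 148.69 centred 2795 bases away. The remaining antibody peaks scored 113.28 and 157.07. The streptavidin peaks of the window, at 155366324 to 155366709 and 155426354 to 155426588, scored 90.17 and 59.46 and lay on either side of the 2 top-decile antibody peaks.

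In the window of Il2ra, which encodes CD25, the strongest antibody peak was chromosome 2, 11575064 to 11575288. It scored 393.52 (89.0% of the list at or below it). Its nearest streptavidin centre was 11156 bases away. The other 4 antibody peaks scored 180.27, 140.21, 122.53 and 100.82 and were spread, with neighbouring centres 15533.5 bases or more apart. The strongest streptavidin peak, at 11563798 to 11564242, scored 97.78 (79.8%), and the others scored 89.07 and 60.96. No antibody and streptavidin centre of this window were closer than 6701 bases.

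The window of Nrp1, a receptor for semaphorins and vascular endothelial growth factor, had the fewest antibody peaks. They were at chromosome 8, 130882132 to 130882406, with a score of 101.12 (9.37% of the list at or below it), and 131073706 to 131073943, with 231.79 (72.1%). The second lay 1586.5 bases from a streptavidin peak at 131075306 to 131075516 with a score of 80.94. The strongest streptavidin peak, at 131081847 to 131082072, scored 87.16, and the other 5 scored from 56.68 to 81.83. No peak of this window was in the top decile of its list.

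Over all windows the scores were close to those of the whole lists. The antibody members ranged from 100.8 to 542.62 with a median of 189, against 167 for the list, and 17 of 30 were above the list's median. The streptavidin members ranged from 53.1 to 161.19 with a median of 76.8, against 74.7, and 22 of 41 were above the list's median. The top decile of each list held 4 of 30 antibody peaks (13.3%) and 6 of 41 streptavidin peaks (14.6%). Their widths were also ordinary, with medians of 225 bases for both, against 233 and 221 in the whole lists.

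**Figure D4:**
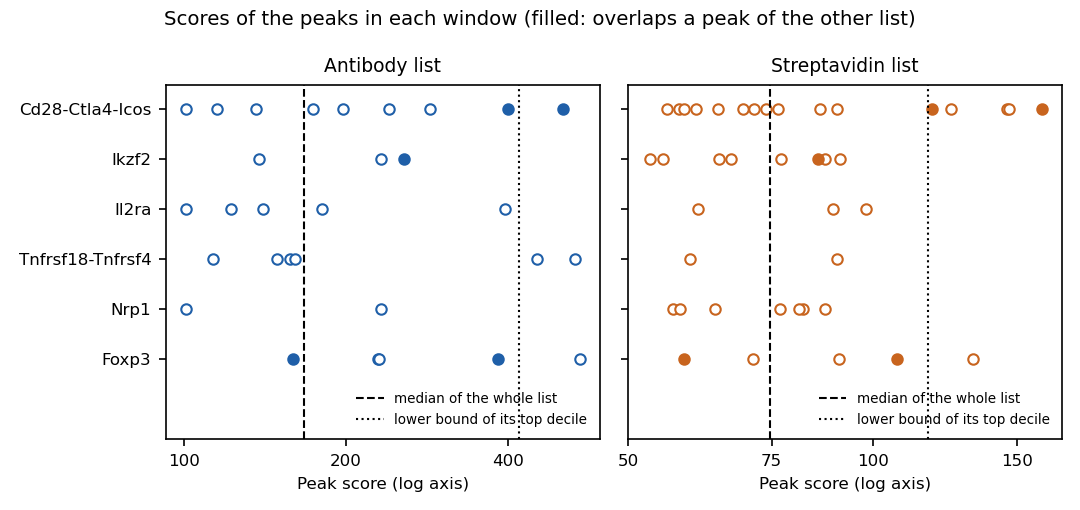
Score of each peak (x axis, log scale) by window, for the antibody list (left) and the streptavidin list (right), with filled points for peaks that overlap the other list, a dashed line at the whole list's median and a dotted line at the lower bound of its top decile. Of the 4 antibody points right of the dotted line 1 is filled, and 5 of the 6 such streptavidin points are in the Cd28-Ctla4-Icos row.

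Most antibody members in the top decile of their list had no streptavidin overlap. The 4 members in the top decile (scores of 419 or more) were the peaks of 542.62 at Foxp3, 530.87 and 451.66 at Tnfrsf18-Tnfrsf4 and 505.6 at Cd28-Ctla4-Icos, and only the last was shared. In the whole list 63.6% of top-decile antibody peaks overlapped a streptavidin peak, and the difference, on 4 peaks, was not tested. It also depends on the bound. Next below it, the peaks of 400.03 at Cd28-Ctla4-Icos and 383.03 at Foxp3 were shared, and that of 393.52 at Il2ra was not. For streptavidin 2 of the 6 top-decile members were shared, against 24.4% of that decile. The shared antibody members had a median score of 383, the unshared ones 174, and the corresponding medians of the whole list were 252 and 158. For streptavidin members the medians were 107 and 75.1, against 98.0 and 74.0.

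Some peaks lay near the other list without touching it. Of the 25 antibody members without an overlap, 4 (16.0%) had a streptavidin centre within 1 kb, against 10.4% in the whole list. They were the peaks of 115.17 and 100.8 at Cd28-Ctla4-Icos, with streptavidin centres 270.5 and 567.5 bases away, that of 137.89 at Ikzf2, 506.5 bases away, and that of 113.28 at Tnfrsf18-Tnfrsf4, 548.5 bases away. All 4 scored below the median of their list. The peak at Ikzf2 neighboured the shared place described above, so 3 of the 4 were places of their own.

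Antibody members also lay near each other. Another antibody centre was within 5 kb of 14 of the 30 (46.7%), against 27.2% of the whole list. For streptavidin members the count was 14 of 41 (34.1%), against 25.3%. These shares are not separate from the densities above, since peaks lie closer together where there are more per Mb. These neighbours are not independent of each other, which the intervals given above do not take into account. With neighbours less than 1 kb apart joined, 27 antibody peaks were left in the windows and the density ratio was 3.33.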

How the data were processed

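The submitters' processing notes name the tools CASAVA 1.4, Bowtie 0.12.7 and MACS 1.4 and the build mm9, without roles or settings. The authors deposited peak lists as start and end positions. The antibody and streptavidin lists as deposited also hold a score per peak. The authors' score carries no definition in the files used here and is taken to be the caller's value for each peak, and the list names carry a false discovery rate of 0.01. The control and any pooling of libraries are not given in the sources used here.

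Lists were read with Python 3.11.15 and intervals computed with SciPy 1.17.1. Positions are counted from 1. Overlap meant at least 1 shared base, and overlap counts equalled those of bedtools 2.31.1. Densities use the span between each chromosome's outermost peaks. The overlap code was tested on simulated data. With 1 library per group no test was run.

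Named peaks were, per window, those shared by both methods, the strongest of each list and the strongest without an overlap; others named in small groups, and the distances of 1 and 5 kb, were picked after the values were seen. The members, windows and lists were chosen with earlier results of these data known.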

Additional observations from a re-analysis of the deposited data

How the results depend on the processing

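Of 65 values over all windows recomputed under other settings, 61 stayed within their interval or, for counts, within 1.5 times. This is a weak criterion, since the interval of the antibody share runs from 5.64% to 34.7%. Counting peaks with any base inside a window changed no value. With the higher-scoring 50% of each list, 17 antibody and 22 streptavidin peaks were left, and with scores of at least 100, 7 streptavidin peaks, since fewer peaks were counted. The streptavidin share met by an antibody peak was then 42.9% at scores of at least 100, and the antibody share 10.0%. The antibody density ratio ranged from 2.92, without Tnfrsf18-Tnfrsf4, to 3.86, without Nrp1, and the streptavidin ratio from 1.11, without Cd28-Ctla4-Icos, to 1.395, with the higher-scoring 50%. With centres within 1 kb taken as shared, the shares were 30.0% of antibody and 19.5% of streptavidin members. Leaving out single windows was chosen after seeing the data. Of 78 counts in single windows, 19 moved by more than 1.5 times. With the windows extended by 50 kb on each side, streptavidin peaks rose to 9 at Il2ra, 5 at Tnfrsf18-Tnfrsf4 and 11 at Nrp1. Antibody peaks rose to 5 at Ikzf2. These counts depend on where the windows end, but the extended windows are also longer, so a higher count alone does not show a higher density. No paired analysis was possible because each group has 1 library, and no replicate could be left out. Depth is unknown, so peaks under the authors' threshold cannot be counted.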

Other observations

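Peaks just beyond the windows were not members. The nearest was a streptavidin peak of score 88.8, centred 0.764 kb outside the Ikzf2 window. Around Tnfrsf18-Tnfrsf4, the 50 kb on each side held 3 antibody peaks, 3 streptavidin peaks and 1 interval of the list of both methods. That interval was centred 22.0 kb outside, and an antibody peak of score 408 was 22.1 kb outside. A shared place thus lay close to a window that itself had none. Around Il2ra the same distance held 2 antibody and 6 streptavidin peaks, and around Foxp3 1 antibody and 0 streptavidin peaks. The genes that these peaks lie nearest to were not determined here.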
